A study of Mus musculus with 178 samples.

Results

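The heavy chain constant genes of the immunoglobulins and the gene of the J chain were followed in the blood of mice with oral tumors that received anti-PD-1 antibody. The members were taken by symbol from the count table: Ighm, Ighd, Ighg3, Ighg1, Ighg2b, Ighg2c, Ighe, Igha and Jchain, 9 of 55450 gene rows. Whole blood of 45 C57BL/6J mice of both sexes, 6 to 8 weeks of age, that carried orthotopic 4MOSC1 tumors, a carcinogen-induced model of head and neck squamous carcinoma, in the tongue or the buccal mucosa, gave 178 bulk RNA-seq libraries. Blood was drawn on Day 4, before treatment, and on Days 9, 17 and 24, during treatment. The 15 responders gave 15, 15, 14 and 15 libraries on the 4 days and the 30 non-responders gave 29, 30, 30 and 30, with response called from tumor size. Every mouse received the antibody and carried a tumor, so that day, treatment, tumor growth and the repeated bleeding cannot be told apart. The Day 17 library of non-responder 24 is labelled as a responder while the other libraries of that mouse are labelled as non-responder, and it was counted with the non-responders. The ear tags of the mice form a series of 3 digits (4 responders, 23 non-responders) and a series of 4 digits (11 responders, 7 non-responders). The tags do not say what the series are. Values within each series are given beside most comparisons of response.

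A B cell that has not met antigen makes IgM and IgD from Ighm and Ighd, the first constant genes behind its rearranged variable region. After activation, class switch recombination deletes Ighm and the DNA up to a gene further along. The same variable region is then joined to an IgG, IgE or IgA constant region. Signals from T cells and cytokines bias the choice of isotype. Each heavy constant gene makes a membrane form, the antigen receptor of a B cell, and a secreted form, the antibody that plasmablasts and plasma cells release in large amounts. The J chain is a small protein that joins IgM into pentamers and IgA into dimers, and antibody-secreting cells are its main source. A count per gene adds the membrane and the secreted form.

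The heavy constant genes lie in a row on the minus strand of chromosome 12 (GRCm38, GENCODE M21). Ighm, at chr12:113418558-113422730, is read first, and Ighd follows at chr12:113406604-113416324, 6.4 kb on. The switched isotypes come after them in the order Ighg3 (chr12:113356224-113361232), Ighg1 (chr12:113325240-113330523), Ighg2b (chr12:113302965-113307933), Ighg2c (chr12:113285325-113288932), Ighe (chr12:113269260-113273248) and Igha (chr12:113254830-113260236). The start of Igha lies 162.5 kb from that of Ighm. Jchain is a gene of chromosome 5 (chr5:88519809-88527891, minus strand). No other annotated gene overlaps any of the 9 members.

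The IgG genes are near relatives, and their sequences decide whether a read can be told apart between them. The hinge exon, the flexible joint between the arms and the stem of the antibody, differs most visibly in length and in cysteine codons, which form the bonds between the heavy chains. The hinge exons of the secreted transcripts are shown 5′ to 3′ with the in-frame cysteine codons in capitals.
Ighg3, chr12:113360529-113360576: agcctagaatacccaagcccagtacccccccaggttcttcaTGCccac
Ighg1, chr12:113329844-113329882: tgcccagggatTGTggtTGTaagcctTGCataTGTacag
Ighg2b, chr12:113307261-113307326: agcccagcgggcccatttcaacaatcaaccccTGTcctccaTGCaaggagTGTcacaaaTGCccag
Ighg2c, chr12:113288263-113288325: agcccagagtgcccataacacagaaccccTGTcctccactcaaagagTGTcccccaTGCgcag
The hinge exon of Ighg1 is 39 bases long with 4 such codons, that of Ighg2b 66 bases with 4, that of Ighg2c 63 bases with 3 and that of Ighg3 48 bases with 1.

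The start of the first constant exon, which codes for the part next to the variable region, shows how the IgG genes differ outside the hinge. The first 90 bases of each are shown 5′ to 3′, with bases that differ from Ighg1 in capitals.
Ighg1, chr12:113330434-113330523: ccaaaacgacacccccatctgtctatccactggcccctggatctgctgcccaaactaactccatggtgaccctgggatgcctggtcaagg
Ighg3, chr12:113361143-113361232: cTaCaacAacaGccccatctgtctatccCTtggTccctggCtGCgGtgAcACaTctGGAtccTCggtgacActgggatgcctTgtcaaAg
Ighg2b, chr12:113307844-113307933: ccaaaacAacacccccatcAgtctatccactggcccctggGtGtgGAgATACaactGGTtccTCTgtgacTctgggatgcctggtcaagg
Ighg2c, chr12:113288843-113288932: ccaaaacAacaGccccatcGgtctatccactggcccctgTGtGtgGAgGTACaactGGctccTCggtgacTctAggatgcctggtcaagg
Ighg3 differed from Ighg1 at 23 of the 90 bases, Ighg2b at 17 and Ighg2c at 18. Over the aligned coding sequence, Ighg2b and Ighg2c were 85.9% identical and the other IgG pairs 75.3% to 77.4%. Of the 958 stretches of 50 bases in the coding sequence of Ighg2b, 56 (5.85%) also occurred in annotated transcripts of Ighg2c, while the coding sequences of Ighg3 and Ighg1 held no stretch found in transcripts of another IgG gene. Over all annotated transcripts of each gene, 4.15% of the stretches of Ighg2b, 5.49% of Ighg2c, 1.58% of Ighg3 and 0.393% of Ighg1 occurred in another member. Reads from shared stretches may be split between the genes by the counting. No stretch of 50 bases of Ighm, Ighd, Ighe, Igha or Jchain occurred in another member. The deposited counts of all 9 members were exact whole numbers, with a remainder of 0 before any rounding, in all 178 libraries.

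Total counts per library ranged from 26059000 to 82208700, and haemoglobin genes took 68.7% to 88.0% of them. The counts of the 8 heavy constant genes together ranged from 666 to 76208 per library, with a median of 22447.5. The lowest value belongs to the Day 24 library of non-responder 29, which also had the lowest scaling factor (0.0848, against 0.266 for the next). Results over all mice that rest on that library are given without it as well where they change. Values within the 4-digit series on Day 24 include it. The B cell markers Ms4a1, Cd79a, Cd79b, Cd22 and Pax5 were present in every library, with log2 CPM of at least 4.50. Of the plasma cell markers, Xbp1, Irf4 and Mzb1 were at a log2 CPM of 1.01 or more in every library and Sdc1 had a median of 0.70, whereas Derl3 had a median of -2.81 and Tnfrsf17 was removed by the filter on low counts. In bulk blood, fewer cells of a type and less RNA per cell cannot be told apart.

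Per length, IgM and IgD transcripts stood far above the switched isotypes. Over all libraries the median of Ighm was 80.3 TPM (2.15 to 247.2), a unit that accounts for transcript length, and that of Ighd was 36.2 TPM (1.10 to 104.02). Igha followed at 4.75 TPM (0.05 to 17.5), Jchain at 0.83 TPM (0.03 to 2.93), Ighg2b at 0.36 TPM, Ighg1 at 0.24 TPM, Ighg3 at 0.11 TPM and Ighg2c at 0.09 TPM, while the median of Ighe was 0. Ighm was above Ighd, Ighd above Igha and Igha above Jchain in all 178 libraries, and Jchain was above Ighg2b in 174. Ighg2b exceeded Ighg1 in 138 of 178 libraries, Ighg1 exceeded Ighg3 in 131 and Ighg3 exceeded Ighg2c in 107, so that the order of these neighbours varied between libraries.

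**Figure D1:**
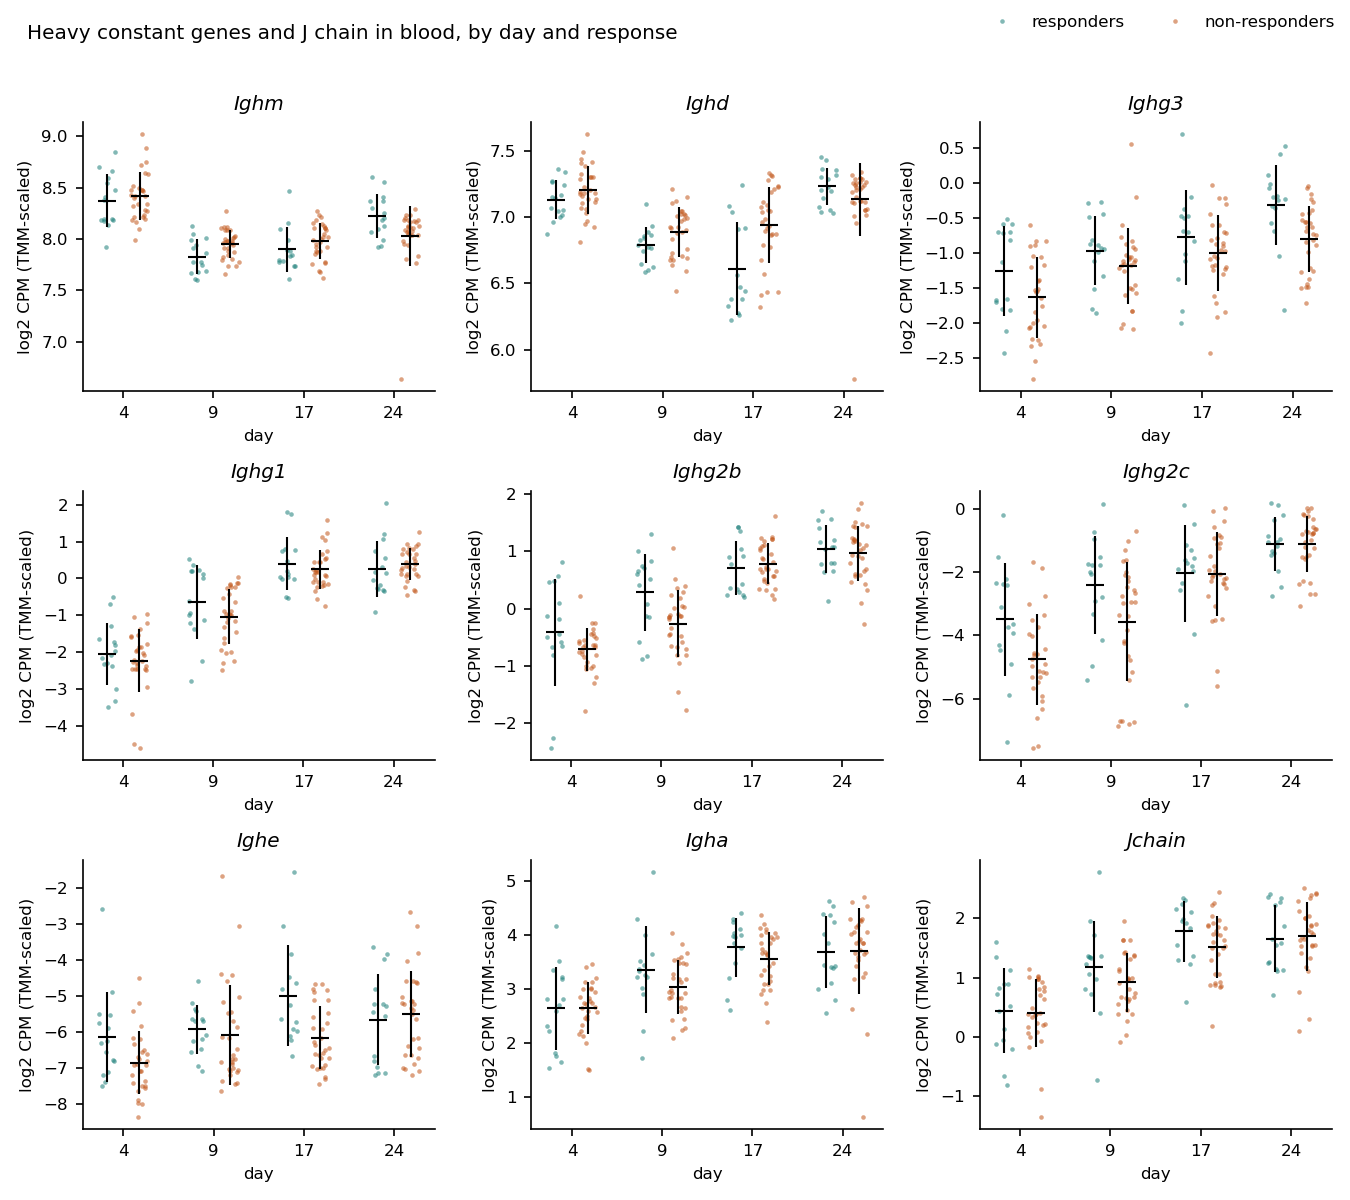
Level of each member in 178 blood libraries, in TMM-scaled log2 CPM (vertical axis, with its own range in each panel) against day (horizontal axis); each point is 1 mouse, the bars give the mean and SD of 15, 15, 14 and 15 responders and of 29, 30, 30 and 30 non-responders. Ighm and Ighd were lower on Day 9 than on Day 4, while the IgG genes, Igha and Jchain were higher on the later days; the lone low points of Ighm, Ighd and Igha on Day 24 are non-responder 29.

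The question behind the first comparison was how the antibody genes moved over the treatment in each response group. Counts were tested with edgeR's quasi-likelihood test and Benjamini-Hochberg adjustment over all genes of the fit, and a change was called where the adjusted p did not exceed 0.05. The main fits held no term for the mouse, so libraries of the same mouse were treated as independent. A fit with the mouse as a block was run as an alternative. Changes are log2 fold changes with their SE, and levels are log2 CPM after TMM scaling, which corrects for differences in RNA composition between libraries. Of the 9 members, 8 passed the filter on low counts in these fits. Ighg2c passed it through its later days, so that its change is described but lends no support to a count over members.

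Ighm, the constant gene of IgM, fell from Day 4 to Day 9 in both groups. In non-responders its lowest, median and highest log2 CPM were 7.99, 8.42 and 9.02 on Day 4, 7.66, 7.97 and 8.28 on Day 9, 7.62, 7.99 and 8.28 on Day 17 and 6.64, 8.10 and 8.29 on Day 24. In responders they were 7.93, 8.38 and 8.85 on Day 4, 7.60, 7.77 and 8.13 on Day 9, 7.61, 7.84 and 8.47 on Day 17 and 7.92, 8.20 and 8.60 on Day 24. The ranges of Day 4 and Day 9 overlapped, but Ighm was lower on Day 9 in all 15 responders and in all 29 non-responders with both libraries. It fell by 0.55 ± 0.09 in responders (adjusted p = 2.65e-06) and by 0.48 ± 0.06 in non-responders (adjusted p = 5.69e-13). On Day 24 it was still lower in non-responders, at -0.39 ± 0.06 (adjusted p = 8.04e-09, lower in 26 of 29 mice), and the value in responders was -0.16 ± 0.08 (adjusted p = 0.189). Within the ear tag series that change was -0.44 ± 0.18 in responders and -0.42 ± 0.06 in non-responders with 3-digit tags, and -0.05 ± 0.10 and -0.30 ± 0.15 with 4-digit tags. The last value includes the Day 24 library of non-responder 29, at 6.64. The median of the 7 mice was 8.08 on Day 24 and 8.23 on Day 4. Responders rose from Day 17 to Day 24 by 0.33 ± 0.09 (adjusted p = 0.00501, higher in 12 of 14 mice), and non-responders had 0.07 ± 0.06 over the same days (adjusted p = 0.397). In responders this change of Ighm was 0.09 ± 0.18 with 3-digit tags and 0.43 ± 0.10 with 4-digit tags.

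Ighd, the constant gene of IgD, is made by splicing of a long transcript that also covers Ighm, and is expressed mainly by mature B cells that have not switched. It was lower on Day 9 in 14 of 15 responders (-0.33 ± 0.08, adjusted p = 0.00136) and in 28 of 29 non-responders (-0.32 ± 0.06, adjusted p = 2.145e-06). On Day 17 its lowest, median and highest log2 CPM were 6.23, 6.46 and 7.24 in responders and 6.32, 6.97 and 7.33 in non-responders. Responders then rose by 0.59 ± 0.08 to Day 24 (adjusted p = 7.35e-07, higher in 13 of 14 mice) and non-responders by 0.19 ± 0.06 (adjusted p = 0.0138, higher in 21 of 30). The change from Day 4 to Day 24 was called in neither group (0.10 ± 0.08, adjusted p = 0.413 in responders and -0.07 ± 0.06, adjusted p = 0.322 in non-responders). The low Day 17 values lay with the ear tag series: mice with 4-digit tags had medians of 6.38 in responders (n = 10) and 6.44 in non-responders (n = 7), and mice with 3-digit tags had medians of 7.06 (n = 4) and 7.05 (n = 23). The change of Ighd from Day 17 to Day 24 was 0.81 ± 0.08 in responders and 0.52 ± 0.14 in non-responders with 4-digit tags, and 0.16 ± 0.14 and 0.12 ± 0.05 with 3-digit tags.

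Ighg1, the constant gene of IgG1, rose in both groups on every later day. In non-responders its lowest, median and highest log2 CPM were -4.60, -2.23 and -0.96 on Day 4, -2.48, -0.98 and 0.05 on Day 9, -0.75, 0.18 and 1.58 on Day 17 and -0.46, 0.36 and 1.27 on Day 24. All 30 values of Day 17 and all 30 of Day 24 lay above the highest value of Day 4, so that these groups did not overlap. In responders the values were -3.50, -2.08 and -0.51 on Day 4, -2.78, -0.62 and 0.54 on Day 9, -0.52, 0.16 and 1.79 on Day 17 and -0.92, 0.15 and 2.04 on Day 24. Here the ranges overlapped, with 12 of 14 mice on Day 17 and 14 of 15 on Day 24 above the highest of Day 4. The change from Day 4 in non-responders was 1.17 ± 0.17 on Day 9 (adjusted p = 1.6e-09), 2.38 ± 0.16 on Day 17 (adjusted p = 1.17e-24) and 2.50 ± 0.16 on Day 24 (adjusted p = 1.92e-26). In responders it was 1.46 ± 0.32 (adjusted p = 0.000435), 2.40 ± 0.32 (adjusted p = 5.3e-07) and 2.29 ± 0.31 (adjusted p = 2.08e-06). Between Day 17 and Day 24 no further change was called (0.12 ± 0.14, adjusted p = 0.588 in non-responders and -0.11 ± 0.27, adjusted p = 0.831 in responders). These levels rest on few reads: the median count of Ighg1 was 16 in non-responders on Day 4 and 67 on Day 24. The rise of responders from Day 9 to Day 17 (0.94 ± 0.29, adjusted p = 0.0394) was no longer called without any 1 of responders 1, 2, 3, 8, 11, 12, 13 and 14, at 0.77 to 0.93 with adjusted p of 0.0588 to 0.133.

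Ighg2b, the constant gene of IgG2b, also rose in both groups. Its change from Day 4 in non-responders was 0.51 ± 0.12 on Day 9 (adjusted p = 0.000142), 1.503 ± 0.12 on Day 17 (adjusted p = 1.51e-20) and 1.74 ± 0.12 on Day 24 (adjusted p = 4.17e-25), and 29 of the 30 libraries of Day 17 lay above the highest of Day 4. The step from Day 9 to Day 17 was 0.99 ± 0.11 (adjusted p = 8.76e-12, higher in 29 of 30 mice). In responders the lowest, median and highest log2 CPM were -2.43, -0.45 and 0.82 on Day 4, -0.88, 0.51 and 1.31 on Day 9, 0.20, 0.60 and 1.43 on Day 17 and 0.14, 1.07 and 1.70 on Day 24. The change in responders was 0.60 ± 0.22 on Day 9 (adjusted p = 0.0362, higher in 10 of 15 mice), 0.95 ± 0.22 on Day 17 (adjusted p = 0.00114) and 1.27 ± 0.21 on Day 24 (adjusted p = 0.0001, higher in 15 of 15). Within the series the changes of Ighg2b on Days 9, 17 and 24 in responders were 1.57, 2.51 and 2.16 with 3-digit tags and 0.45, 0.56 and 1.14 with 4-digit tags, and in non-responders 0.53, 1.63 and 1.93 and then 0.48, 1.08 and 1.004. The call of Day 9 in responders was lost without any 1 of responders 2, 3, 4, 6, 9, 11, 12 and 15, at 0.50 to 0.59 with adjusted p of 0.051 to 0.0764.

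Ighg2c, which takes the place of Ighg2a in C57BL/6 mice, started from the lowest level of the IgG genes. Its median count in non-responders was 2 on Day 4, 6.5 on Day 9, 12 on Day 17 and 27 on Day 24, and 5 of 29 libraries of Day 4 held no count. In responders the median counts were 4, 7, 9 and 25. In non-responders it rose by 1.31 ± 0.36 on Day 9 (adjusted p = 0.00133), 2.48 ± 0.34 on Day 17 (adjusted p = 1.45e-09) and 3.19 ± 0.33 on Day 24 (adjusted p = 1.77e-13, higher in 28 of 29 mice). Responders had 1.21 ± 0.48 on Day 9 (adjusted p = 0.054), and rose by 1.33 ± 0.49 on Day 17 (adjusted p = 0.0358) and 2.04 ± 0.46 on Day 24 (adjusted p = 0.00213, higher in 15 of 15). The change of Ighg2c by Day 24 was 3.54 ± 0.36 in non-responders with 3-digit tags and 1.89 ± 0.69 with 4-digit tags, and 2.505 ± 1.09 and 1.85 ± 0.47 in responders. From Day 17 to Day 24 non-responders had 0.72 ± 0.28 (adjusted p = 0.0507), and with the mouse as a block 0.74 ± 0.27 (adjusted p = 0.039). It was also called without any 1 of 9 non-responders (0.74 to 0.82, adjusted p of 0.0276 to 0.0494). The value of Day 9 in responders was called without responder 9 or responder 10 (1.33 to 1.35, adjusted p of 0.0361 to 0.0385). That of Day 17 was lost without any 1 of responders 3, 4, 6, 7, 11, 13, 14 and 15 (1.08 to 1.33, adjusted p of 0.0507 to 0.112).

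Ighg3, the constant gene of IgG3, moved least among the IgG genes. Its median log2 CPM went from -1.56 on Day 4 to -0.70 on Day 24 in non-responders and from -1.13 to -0.22 in responders. In non-responders the changes were 0.47 ± 0.14 on Day 9 (adjusted p = 0.0031), 0.61 ± 0.14 on Day 17 (adjusted p = 0.000185) and 0.78 ± 0.14 on Day 24 (adjusted p = 2.8e-06, higher in 26 of 29 mice). In responders only Day 24 was called, at 0.93 ± 0.21 (adjusted p = 0.00196, higher in 14 of 15), with 0.25 ± 0.22 on Day 9 (adjusted p = 0.426) and 0.50 ± 0.22 on Day 17 (adjusted p = 0.085). With the mouse as a block the value of Day 17 was 0.51 ± 0.19 (adjusted p = 0.0436). Without responder 5 or responder 14 it was 0.58 to 0.63 with adjusted p of 0.0334 to 0.0487. Within the series the change of Ighg3 in responders on Day 17 was 1.32 ± 0.39 with 3-digit tags and 0.30 ± 0.23 with 4-digit tags. From Day 17 to Day 24 responders had 0.44 (adjusted p = 0.133), and without responder 11 this was 0.56 and called (adjusted p = 0.0405).

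Igha, the constant gene of IgA and the most abundant switched isotype, rose in both groups. In non-responders its lowest, median and highest log2 CPM were 1.49, 2.72 and 3.46 on Day 4, 2.09, 2.96 and 4.03 on Day 9, 2.38, 3.65 and 4.36 on Day 17 and 0.63, 3.85 and 4.70 on Day 24. In responders they were 1.54, 2.70 and 4.16, then 1.72, 3.34 and 5.16, then 2.61, 3.97 and 4.40, and on Day 24 2.56, 3.44 and 4.63. The ranges overlapped throughout, and 27 of 29 non-responders and 13 of 14 responders were higher on Day 17 than on Day 4. The changes from Day 4 on Days 9, 17 and 24 were 0.40 ± 0.13 (adjusted p = 0.00809), 0.91 ± 0.13 (adjusted p = 6.99e-09) and 1.15 ± 0.13 (adjusted p = 7.53e-12) in non-responders. In responders they were 0.73 ± 0.25 (adjusted p = 0.0215), 0.99 ± 0.25 (adjusted p = 0.00267) and 0.96 ± 0.25 (adjusted p = 0.00606). Without responder 9 the value of Day 9 was 0.65 (adjusted p = 0.0542). The change of Igha by Day 24 was larger with 3-digit tags, at 1.30 ± 0.13 in non-responders and 1.76 ± 0.30 in responders, than with 4-digit tags, at 0.54 ± 0.33 and 0.70 ± 0.30; the difference between the series was not tested.

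Jchain, the gene of the J chain, rose in both groups as well. Its median log2 CPM on Days 4, 9, 17 and 24 was 0.39, 0.94, 1.62 and 1.75 in non-responders and 0.52, 1.34, 1.93 and 1.58 in responders. Non-responders rose by 0.51 ± 0.13 (adjusted p = 0.000722), 1.10 ± 0.13 (adjusted p = 1.69e-11) and 1.33 ± 0.13 (adjusted p = 4.32e-14), and 28 of 29 were higher on Day 24. Responders rose by 0.74 ± 0.22 (adjusted p = 0.00963), 1.19 ± 0.23 (adjusted p = 9.11e-05) and 1.12 ± 0.22 (adjusted p = 0.000563), and 15 of 15 were higher on Day 24. Within the series the change of Jchain by Day 24 was 1.41 ± 0.14 in non-responders and 1.64 ± 0.32 in responders with 3-digit tags, and 0.95 ± 0.28 and 0.96 ± 0.27 with 4-digit tags.

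Ighe, the constant gene of IgE, was at the edge of detection. It had a count in 3 of 29, 12 of 30, 9 of 30 and 17 of 30 libraries of non-responders on Days 4, 9, 17 and 24, with 4, 25, 11 and 33 counts over each group. In responders it had a count in 1 of 15, 2 of 15, 7 of 14 and 7 of 15 libraries, with 2, 2, 27 and 12 counts over the group. Of the 27 counts in responders on Day 17, 16 came from 1 library. It was removed by the filter in all these fits, and no fold change is given for it.

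**Figure D2:**
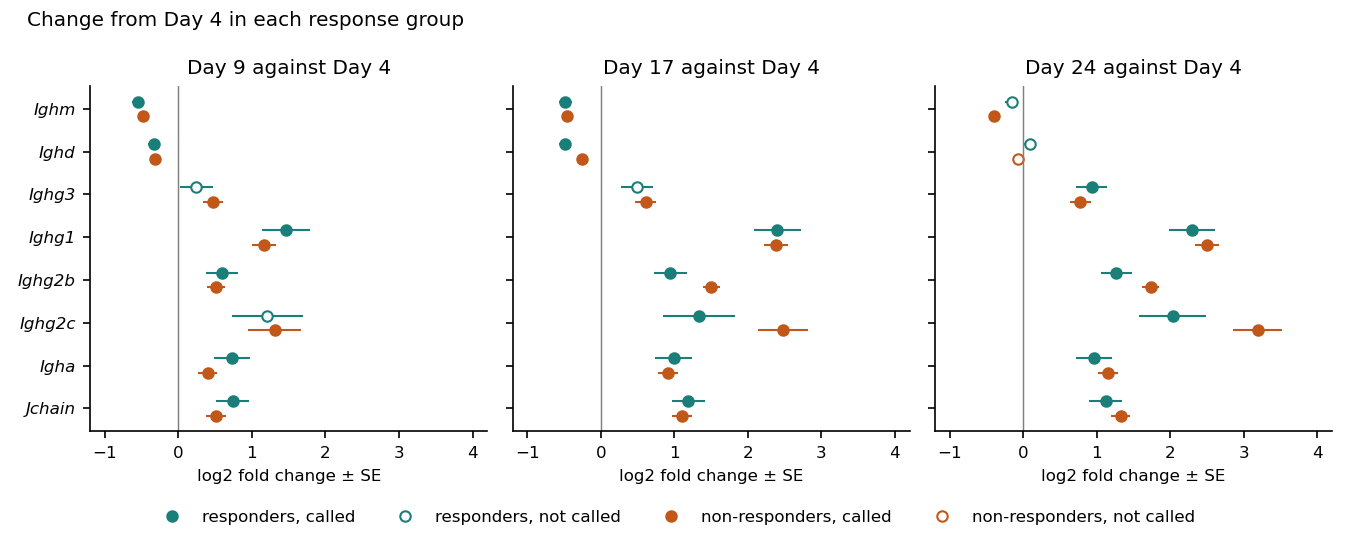
Log2 fold change from Day 4 with its SE (horizontal axis) of the 8 members tested (vertical axis), on Days 9, 17 and 24, in responders and non-responders; filled points passed an adjusted p of 0.05. Ighm and Ighd lay below 0 on Days 9 and 17 in both groups, and Ighg1 reached 2.29 to 2.50 on Day 24.

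Leaving out Ighg2c, 6, 6 and 5 of the 7 members that remain were called in responders on Days 9, 17 and 24, while 27.7%, 25.6% and 17.4% of all genes tested were called in those comparisons. In non-responders 7, 7 and 6 of the 7 were called, against 50.8%, 46.1% and 48.7% of all genes. These 7 include Ighg1 and Ighg3, whose counts on Day 4 were also low. Their medians were 10 and 22 in responders and 16 and 23 in non-responders. Whether either would pass the filter on Day 4 alone was not tested, so these counts over members are a description. Within the series, non-responders with 3-digit tags (23 mice) had 7, 7 and 6 calls, where 53.8%, 51.4% and 52% of all genes were called, and those with 4-digit tags (7 mice) had 2, 3 and 3, where 14.3%, 12.7% and 3.96% were. Responders with 4-digit tags (11 mice) had 3, 4 and 4 calls, with 17.3%, 19.8% and 4.09% of all genes called. Those with 3-digit tags (4 mice) had 1, 0 and 0, with 6.91%, 0% and 0% of all genes called, while the unadjusted p was under 0.05 for 3855 and 2717 of 12675 genes on Days 17 and 24. Ighg1 was higher in each of these 4 sets of mice on each day, between 1.04 and 2.67. Ighg3 of non-responders on Day 9 was at -0.06 with 4-digit tags, against 0.61 with 3-digit tags. Between neighbouring days, 4 of the 7 members rose in non-responders from Day 9 to Day 17 (Ighg1, Ighg2b, Igha and Jchain, 10.3% of all genes called higher; with 4-digit tags alone Igha was at -0.18 ± 0.32 and Jchain at -0.11 ± 0.27) and 1, Ighd, from Day 17 to Day 24 (9.86%). In responders 1 member, Ighg1, rose from Day 9 to Day 17 (1.85%) and 2, Ighm and Ighd, from Day 17 to Day 24 (9.59%). Whether the 2 response groups changed by different amounts was tested as the difference of their changes. No member was called on Day 9, 17 or 24, where 0, 48 and 515 of 13688 genes (0%, 0.351% and 3.76%) were, and 154 (1.12%) on Day 24 without the library of non-responder 29; the unadjusted p was under 0.05 for 719, 1401 and 2513 genes. The widest differences were those of Ighg2c on Day 24 (-1.17 ± 0.59, adjusted p = 0.266) and Day 17 (-1.15 ± 0.61, adjusted p = 0.504) and of Ighg2b on Day 17 (-0.57 ± 0.23, adjusted p = 0.377), all with the smaller rise in responders over all mice. Within the series, the values given above turn for Ighg2b on Day 17. Its rise was larger in responders with 3-digit tags and smaller with 4-digit tags. That of Ighg2c on Day 24 was smaller in responders with 3-digit tags and nearly alike with 4-digit tags.

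The second question was whether responders and non-responders differed on a given day. Here a call also asked for a fold of 1.5 or more, beside an adjusted p not above 0.05, and no member was called on any day. On Days 4, 9, 17 and 24, 4.21%, 3.65%, 0.264% and 0.297% of all genes tested were called, and 0.762% on Day 24 without the library of non-responder 29. Ighg2b was higher in responders on Day 9 by 0.57 ± 0.18 (adjusted p = 0.0232) and Ighg3 on Day 24 by 0.55 ± 0.14 (adjusted p = 0.0147), both short of the fold threshold. For Ighg2b on Day 9 the lowest, median and highest log2 CPM were -0.88, 0.51 and 1.31 in responders and -1.77, -0.14 and 1.06 in non-responders. Within the series the difference was 0.34 ± 0.29 with 3-digit tags and 0.45 ± 0.26 with 4-digit tags. For Ighg3 on Day 24 the values were -1.81, -0.22 and 0.53 in responders and -1.72, -0.70 and -0.04 in non-responders, and the difference within the series was 0.19 ± 0.26 and 0.34 ± 0.17. Leaving out 1 mouse took Ighg2b past both thresholds on Day 9 in 12 of 45 cases (0.59 to 0.63), on Day 4 without responder 4 (0.60, against 0.51 ± 0.18 with all mice), and Ighg3 on Day 24 without responder 1 or responder 3 (0.60).

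For several members the sign of the difference between responders and non-responders turned with the series or the scale. On Day 4 Ighg2b was at -0.63 ± 0.29 with 3-digit tags and 0.47 ± 0.23 with 4-digit tags, Ighg1 at -0.54 ± 0.50 and 0.17 ± 0.31, and Ighg3 at -0.38 ± 0.34 and 0.39 ± 0.24. On TPM, which is not corrected for the RNA composition of the library, the median of all genes lay at -0.58 on Day 4 and at -0.57 on Day 9 in responders against non-responders. Ighm and Ighd lay at -0.79 and -0.80 on that scale on Day 4 and at -0.785 and -0.78 on Day 9, and these passed a Wilcoxon test on TPM (adjusted p = 0.0147 for both on Day 4 and 0.00119 for both on Day 9). With the fold of 1.5 also asked, 48.4% and 47.6% of all genes were called by that test on those days. Igha on Day 9 was at -0.14 on TPM against 0.47 with TMM scaling, Jchain at -0.24 against 0.37 and Ighg1 at -0.04 against 0.51. Ighg2b on Day 4 was at -0.13 against 0.51. On Day 9 Ighg2b kept its sign, at 0.08 on TPM (adjusted p = 0.69 by the Wilcoxon test) against 0.57. None of these values was called. With TMM scaling the differences of Ighm and Ighd were -0.03 and -0.07 on Day 4 and -0.12 and -0.10 on Day 9. Of 7 red cell genes listed as markers, 4 were called higher in responders on Day 4 and 7 on Day 9, against 3.91% and 3.63% of all genes. The part of red cell RNA in the differences on TPM was not tested.

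**Figure D3:**
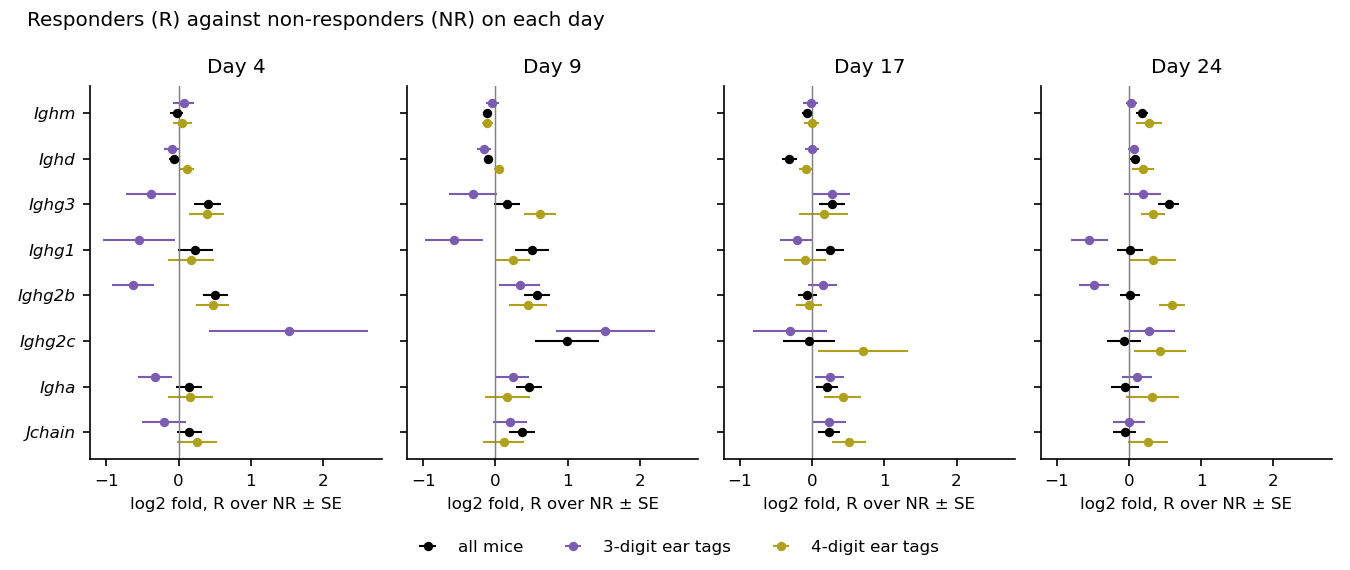
Log2 fold of responders over non-responders with its SE (horizontal axis) for the members tested (vertical axis) on each day, over all mice (15 against 30 at most) and within the mice with 3-digit tags (4 against 23) and with 4-digit tags (11 against 7). Ighd on Day 17 lay at -0.31 ± 0.10 over all mice (adjusted p = 0.0671), -0.01 ± 0.09 with 3-digit tags and -0.09 ± 0.10 with 4-digit tags, and the IgG genes on Day 4 lay on opposite sides of 0 in the 2 series, except Ighg2c, which was tested in the 3-digit series alone.

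The share of each isotype in the counts of the 8 heavy constant genes does not depend on the scaling of the library. IgM and IgD together held nearly all of these counts, and the switched isotypes held 1.59% ± 0.52 (SD, n = 29) in non-responders on Day 4. That share was 2.86% ± 0.975 (n = 30) on Day 9, 4.13% ± 1.04 (n = 30) on Day 17 and 4.40% ± 1.23 (n = 30) on Day 24. In responders it was 1.91% ± 1.10 (n = 15), 4.10% ± 2.15 (n = 15), 5.22% ± 1.43 (n = 14) and 4.07% ± 1.48 (n = 15). The highest single value was 10.9%, in the Day 9 library of responder 7, where Igha alone held 9.95%.

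Shares were tested by permutation over mice (two-sided, 100000 resamples, Benjamini-Hochberg over 104 tests). From Day 4 to Day 24 the Ighm share of non-responders fell by 6.57 percentage points (lower in 29 of 29 mice, adjusted p = 6.5e-05, from the smallest p the resamples allow) and the Ighd share rose by 3.75 points (higher in 25 of 29, adjusted p = 6.5e-05). In responders Ighm fell by 5.09 points (adjusted p = 0.00108) and Ighd rose by 2.92 points (adjusted p = 0.00766). In responders these changes were -9.55 and 6.01 points with 3-digit tags and -3.46 and 1.80 points with 4-digit tags, and in non-responders -6.89 and 3.62 points and then -5.55 and 4.15 points. The Igha share of non-responders went from 1.33% ± 0.48 to 3.33% ± 1.17 (SD, n = 29 and 30), a mean change of 2.00 points within mice (adjusted p = 6.5e-05), and that of responders from 1.54% ± 1.01 to 3.04% ± 1.45 (n = 15), by 1.49 points (adjusted p = 0.00251). Within the series this change was 2.39 points in non-responders and 2.85 points in responders with 3-digit tags, and 0.751 and 0.999 points with 4-digit tags. Ighg1 went from 0.048% ± 0.023 to 0.327% ± 0.128 in non-responders and from 0.058% ± 0.042 to 0.284% ± 0.160 in responders, and its share was higher in 29 of 29 and in 15 of 15 mice. In all, 8, 7 and 8 of the 8 shares were called in non-responders on Days 9, 17 and 24, and 7, 5 and 7 in responders. The shares of a library add up to the whole, so a fall of 1 share raises others and these calls are not separate results. The Ighd level itself was called in neither group from Day 4 to Day 24, as given above. The calls of Day 24 in non-responders include Ighe, with 33 counts over the group. On Day 17 the direction turned with the series for Ighd, at 2.80 points in non-responders and 5.02 points in responders with 3-digit tags and -1.90 and -4.12 points with 4-digit tags, and for Ighm in responders, at -8.57 and 0.990 points. The call of Ighe on Day 9 in non-responders rests on 25 counts and was lost without any 1 of non-responders 17, 26, 28 and 30, and that of Ighg2c in responders on Day 17 was lost without responder 7 or responder 11.

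Among the 6 switched isotypes alone, the share of Igha fell in non-responders and that of Ighg1 rose in both groups. In non-responders Igha held 83.0% of the switched counts on Day 4, 80.0% on Day 9, 75.2% on Day 17 and 73.8% on Day 24. It fell by 9.36 percentage points within mice from Day 4 to Day 24 (adjusted p = 0.00039), while Ighg1 rose by 5.12 points (adjusted p = 0.00026), Ighg2b by 2.898 points (adjusted p = 0.00399) and Ighg2c by 1.99 points (adjusted p = 0.00026). In responders Igha held 78.1%, 77.9%, 76.3% and 71.8%, and its change by Day 24 was -6.29 points (adjusted p = 0.154), whereas Ighg1 rose by 4.58 points (adjusted p = 0.00399). For the difference between the groups in these changes, Ighg2b was called on Day 17 (-3.65 points in responders less non-responders, adjusted p = 0.0431) and no share on Day 9 or Day 24.

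**Figure D4:**
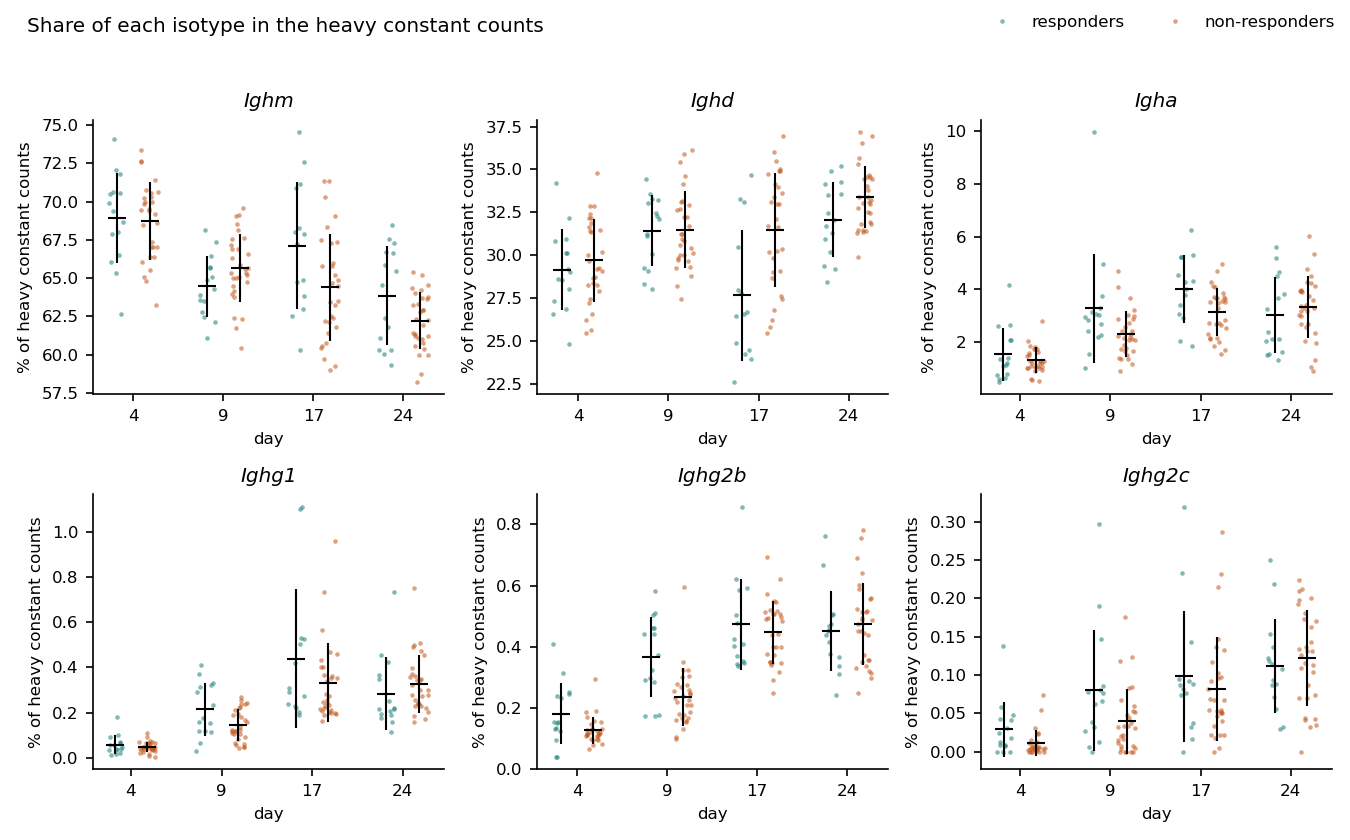
Share of 6 heavy constant genes in the counts of all 8 (vertical axis, percent, with its own range in each panel) against day (horizontal axis); each point is 1 mouse and the bars give the mean and SD. The mean Ighm share of non-responders went from 68.7% on Day 4 to 62.2% on Day 24, and the Igha and IgG shares were higher on the later days in both groups.

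Between responders and non-responders, 2, 4, 3 and 0 of the 8 shares were called on Days 4, 9, 17 and 24. On Day 9 these were Ighg2b (0.366% ± 0.132, n = 15, against 0.234% ± 0.095, n = 30, adjusted p = 0.00185 by permutation), Igha (3.28% against 2.32%, adjusted p = 0.0373), Ighg1 (0.214% against 0.145%, adjusted p = 0.0361) and Ighg2c (0.080% against 0.040%, adjusted p = 0.0492). On Day 17 Ighd had a lower share in responders (27.6% ± 3.83, n = 14, against 31.5% ± 3.32, n = 30, adjusted p = 0.00492 by permutation), and Igha a higher one (4.02% against 3.13%, adjusted p = 0.0247). The Ighe share of Day 17 was also called, and without responder 11 its adjusted p was 0.0566. With the mice permuted within the ear tag series, Ighg2b on Day 9 (adjusted p = 0.0414) and Igha on Day 17 (adjusted p = 0.0414) were called and the others were not, and the Ighd share of Day 17 had an adjusted p of 0.282. Within the series the Ighd difference on Day 17 was -0.007 points with 3-digit tags and -1.29 points with 4-digit tags, against -3.83 over all mice. The Ighg2b difference on Day 9 was 0.0761 and 0.0998 points, that of Igha 0.389 and 0.391 points on Day 9 and 0.572 and 1.17 points on Day 17, and that of Ighg2c on Day 9 0.0714 and 0.0191 points. The Ighg1 difference on Day 9 turned, at -0.0403 points with 3-digit tags and 0.0431 points with 4-digit tags. So did that of Ighg2b on Day 4 (-0.0352 and 0.0480 points), whereas Ighg2c on Day 4 was at 0.0284 and 0.00678 points and Ighe on Day 17 at 0.00232 and 0.0135 points. The call of Igha on Day 9 (0.967 points over all mice) was lost without any 1 of 9 mice, among them responder 7 with the highest Igha share, at 0.491 points or more with adjusted p up to 0.148. The call of Ighg2c on Day 9 was lost without any 1 of 30 mice (0.0249 to 0.0414 points, against 0.0404 with all mice), that of Ighg1 without any 1 of 7 (0.0551 to 0.0655 points), and that of Igha on Day 17 without responder 7 (0.717 points, adjusted p = 0.065). The calls of Day 4 were Ighg2b and Ighg2c, and leaving out any 1 of 6 and of 5 responders ended them, at 0.0379 to 0.0505 points (0.0542 with all mice) and 0.0105 to 0.0174 points (0.0183 with all mice), with adjusted p up to 0.0917 and 0.1215. On Day 24 the Ighg3 share was called without non-responder 29 (0.0475 points, adjusted p = 0.0103, against 0.0369 points and 0.143 with all mice), the Ighm share without any 1 of 9 mice (1.72 to 1.96 points) and the Ighd share without any 1 of 4 (-1.53 to -1.43 points). On the earlier days leaving out 1 mouse also took Ighg3 past the threshold, in 10 cases on Day 4, 1 on Day 9 and 5 on Day 17, and Ighm in 13 on Day 17.

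The third question was which members moved together from mouse to mouse. Log2 CPM less the mean of the response group and day was used, with Pearson's r and Spearman's rho and permutation tests adjusted over the 32 relations of Jchain with the isotypes. Igha and Jchain went together on each day. On Day 4, r was 0.894 and rho 0.911 over 44 mice, on Day 9 0.947 and 0.908 over 45 mice, on Day 17 0.927 and 0.908 over 44 and on Day 24 0.940 and 0.959 over 45. Each had an adjusted p of 5.33e-05 for r and of 6.4e-05 for rho, from the smallest p the resamples allow. Without the 2 mice farthest from the median of Igha, r was 0.878 to 0.943, and within the series it was 0.843 to 0.948 with 3-digit tags and 0.902 to 0.978 with 4-digit tags. For Ighm, the other partner of the J chain, r was -0.185, 0.050, 0.125 and 0.308 on the 4 days, with adjusted p of 0.102 to 0.885. Ighg2b was related to Jchain on Days 9, 17 and 24 (r = 0.523, 0.608 and 0.491) and Ighg2c on Days 17 and 24 (r = 0.655 and 0.671, rho = 0.636 and 0.641). Without the 2 farthest mice the r of Ighg2b was 0.468, 0.583 and 0.350 and that of Ighg2c 0.658 and 0.577. Ighg1 was related on Day 9 alone (r = 0.397, adjusted p = 0.0182), and Ighg3 on no day, with r of -0.276 to 0.162. Ighd passed the test on Day 17 (r = 0.417) and Day 24 (r = 0.428), but without the 2 farthest mice the latter was 0.081. Means of the ear tag series were not removed in these relations. In non-responders on Day 9, Ighg1 and Jchain had means of -1.25 and 0.80 with 3-digit tags and -0.35 and 1.33 with 4-digit tags. On Day 17 Ighd and Jchain had 7.07 and 1.61, then 6.52 and 1.18. The part of the series in the relations of the IgG genes and Ighd was not tested.

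**Figure D5:**
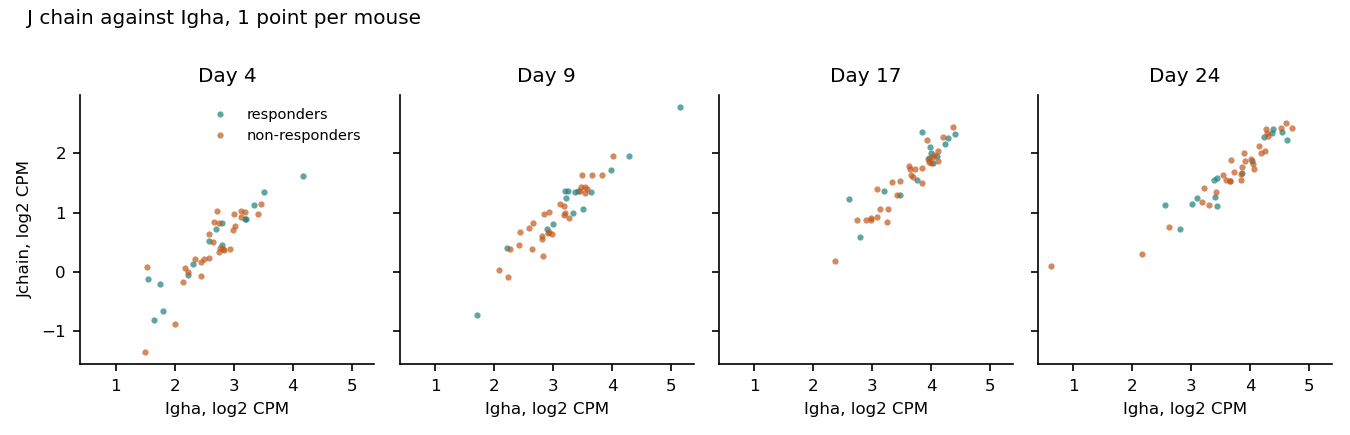
Jchain (vertical axis) against Igha (horizontal axis), both in TMM-scaled log2 CPM, 1 point per mouse, for each day and response group. The points follow 1 line on each day, with r of 0.894 to 0.947 after removal of the group means.

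Whether a mouse high in a member stayed high at the next bleeding was tested with 27 relations between neighbouring days. Igha was related from Day 4 to Day 9 (r = 0.614, rho = 0.530, adjusted p = 0.00135, n = 44) and from Day 17 to Day 24 (r = 0.427, rho = 0.445, adjusted p = 0.0158), but not from Day 9 to Day 17, where r was -0.136 (adjusted p = 0.537). Jchain had the same pattern, with r of 0.469, -0.215 and 0.438 over the 3 intervals (adjusted p = 0.0104, 0.302 and 0.0156). Ighm was related from Day 9 to Day 17 (r = 0.493, adjusted p = 0.00877), and so was Ighg3 (r = 0.421, adjusted p = 0.016), while Ighg2b (r = 0.420, adjusted p = 0.016) and Ighg2c (r = 0.459, adjusted p = 0.0104) were related from Day 4 to Day 9. The means of the ear tag series were not removed. Within the series, r of Igha over the 3 intervals was 0.468, -0.105 and 0.253 with 3-digit tags and 0.679, -0.0228 and 0.437 with 4-digit tags, and that of Jchain 0.418, -0.169 and 0.339 and then 0.513, -0.153 and 0.430. For Ighm and Ighg3 from Day 9 to Day 17 it was 0.391 and 0.446 with 3-digit tags and 0.693 and 0.422 with 4-digit tags, and for Ighg2b and Ighg2c from Day 4 to Day 9 0.227 and 0.487 and then 0.603 and 0.483. Ighg1 passed in no interval, with r of 0.109 to 0.308, and neither did Ighe. Ighd passed from Day 9 to Day 17 by rho (0.373, adjusted p = 0.0398) but not by r (0.350, adjusted p = 0.059). With TPM on a log2 scale in place of log2 CPM, none of the 27 relations passed.

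The genes whose pattern across the 178 libraries was most like that of a member were named by Spearman's rho of log2 CPM less group and day means, among 13688 genes, as a description. The libraries share mice, so that they are not independent, and differences between the ear tag series were left in. Ighd on Day 17 differed between the series, as given above, and the part of the series in these likenesses was not tested. For Ighm they were Cd79b (rho 0.917), Ms4a1 (0.907), Cd79a (0.893), Spib (0.837) and Gpd1l (0.833); Cd79a and Cd79b are the signalling chains of the B cell receptor and Ms4a1 encodes CD20. For Ighd they were H2-Aa (0.878), H2-Eb1 (0.867), H2-Oa (0.844), H2-DMb2 (0.841) and Fcer2a (0.823), which are genes of antigen presentation on MHC class II and the gene of CD23. The rho of Ighm with Ighd was 0.646. Igha and Jchain had each other (0.929), and the likest gene outside the members was Gorab for both (0.354 and 0.322), followed by Tmem186 (0.315 and 0.312). Ighg2b was most like Igkc, the kappa light chain constant gene, at 0.363, then Blnk (0.345), Igkv12-46 (0.335), Igkv19-93 (0.330) and Ighv8-8 (0.329), and among the members Igha (0.438) and Jchain (0.431). For Ighg1 the highest was Rarg at 0.336, and its rho with Ighm was -0.095.

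The genes around antibody production were read from the same fits, by lists. Of all genes tested, 23.3%, 21.9% and 23.8% were called higher and 27.5%, 24.2% and 24.8% lower in non-responders on Days 9, 17 and 24, and 13.5%, 12.2% and 7.44% higher and 14.2%, 13.4% and 9.94% lower in responders. Light chain constant genes, which are shared by all isotypes, did not rise: of 4 tested, none was higher in any change from Day 4, and 3, 2 and 2 were lower in non-responders on Days 9, 17 and 24 and 2, 1 and 0 in responders. Igkc fell by 0.48 ± 0.07 in non-responders (adjusted p = 1.03e-09) and by 0.57 ± 0.10 in responders (adjusted p = 7.56e-06) on Day 9. Of 20 genes of mature B cell identity, 17 were lower in non-responders and 13 in responders on Day 9, with median changes of -0.26 and -0.26 against -0.01 and 0.01 over all genes. Markers of other blood cells moved both ways on that day. Of 6 T cell genes 6 were lower in non-responders and 5 in responders (medians of -0.51 and -0.47), and of 6 platelet genes 6 and 1 (medians of -0.45 and -0.45). Of 6 monocyte genes 6 were higher in non-responders and 3 in responders (medians of 0.97 and 0.69), and of 6 neutrophil genes 5 and 2 (medians of 0.93 and 0.50). Of 6 NK cell genes 1 was lower in each group, and of 7 red cell genes 2 were higher in non-responders and 0 in responders. Their part in the changes of the B cell genes was not tested. Of the 20 genes of mature B cell identity, 15 were lower in non-responders and 14 in responders on Day 17. On Day 24 that list split, with 2 higher and 10 lower in non-responders and 4 higher and 2 lower in responders. Other markers follow for non-responders, then responders. On Day 17, T cell (6 and 4 of 6) and NK cell genes (5 and 1 of 6) were lower. Neutrophil genes went both ways (5 and 4 higher, 1 and 1 lower). Of 6 monocyte genes 3 and 0 were higher and 0 and 1 lower, and of 7 red cell genes 2 and 0 were higher. On Day 24, T cell (5 and 4 of 6), NK cell (6 and 6) and platelet genes (6 and 2) were lower. Red cell (6 and 0 of 7) and neutrophil genes (5 and 0 of 6) were higher. Of 6 monocyte genes 1 and 0 were higher and 2 and 2 lower. Cd79a fell by 0.61 ± 0.07 in non-responders and by 0.66 ± 0.10 in responders on Day 9, and Fcmr, the receptor for IgM, by 0.72 ± 0.08 and 0.97 ± 0.13 on Day 17.

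Genes of plasma cells and antibody secretion were read as a list, without a test against the switched isotypes. The shares of all genes called on these days are those given above. Of 19 tested in non-responders, 2 were higher and 5 lower on Day 9, 2 and 7 on Day 17, and 1 and 5 on Day 24, with medians of -0.04, -0.09 and -0.05. Of 18 tested in responders, the counts were 2 and 5, 0 and 6, and 2 and 2. Prdm1 and Xbp1, the regulators of plasma cell fate, rose on Day 9 in non-responders (0.78 ± 0.09 and 0.64 ± 0.08) and responders (0.60 ± 0.15 and 0.345 ± 0.08). Tnfrsf13b, a receptor for the survival factors BAFF and APRIL, fell by 0.37 ± 0.05 and 0.42 ± 0.07 on Day 17. Both Prdm1 and Xbp1 are also expressed by T cells and myeloid cells. The counts of monocyte and neutrophil genes higher on that day are given above. Their part in the changes of Prdm1 and Xbp1 was not tested.

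Genes of class switching and the germinal centre moved both ways. Of 18 tested, 5 were higher and 9 lower in non-responders on Day 9, 1 and 7 on Day 17 and 4 and 6 on Day 24, and in responders the counts were 2 and 4, 2 and 4, and 2 and 0. Aff3 fell by 0.43 ± 0.05 in non-responders and by 0.40 ± 0.06 in responders on Day 17. Of 18 genes of switch signals and their receptors, 6 were higher and 7 lower in non-responders on Day 9, 6 and 9 on Day 17 and 1 and 9 on Day 24, and in responders the counts were 5 and 4, 3 and 6, and 0 and 2. Tnfsf13, the gene of APRIL, rose by 1.07 ± 0.12 in non-responders on Day 9, and Cd40lg, the T cell signal for switching, fell by 0.72 ± 0.09. In responders Tnfsf13 had 0.35 ± 0.22 (adjusted p = 0.243) and Cd40lg fell by 0.44 ± 0.13. The T cell genes given above were lower on the same day. Among 12 receptors for antibody constant regions, 9 were higher and 2 lower in non-responders on Day 9, 4 and 2 on Day 17 and 1 and 3 on Day 24, and in responders the counts were 6 and 2, 4 and 2, and 1 and 3. The IgG receptor gene Fcgr1 rose by 1.43 ± 0.13 and 1.00 ± 0.20 on that day, together with the monocyte list given above, and on Day 24 it was lower in responders, at -0.73 ± 0.21. Pigr, the receptor that carries polymeric IgA and IgM across epithelia, was higher in responders on Days 9, 17 and 24, by 1.99 ± 0.48, 1.65 ± 0.50 and 1.58 ± 0.48, and in non-responders on Day 9, by 1.49 ± 0.27. The counts of this list hold Fcmr and Fcer2a, which also stand in the list of B cell genes.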

How the data were processed

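RNA of whole blood was sequenced as polyadenylated RNA with the SMARTer mRNA-Seq kit from 45 mice on 4 days. The authors aligned reads to mm10 with STAR, per the submitters' processing notes, and deposited 1 table of estimated counts per gene and 1 table of TPM per gene symbol; the counting tool and the annotation are not given in the sources used here. All 55450 gene identifiers occur in GENCODE M21 (GRCm38), from which places and sequences were taken. Positions are on the minus strand for all members, and sequences were read from its transcripts.

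Counts were rounded and tested with edgeR 4.0.16 in R 4.3.3 (TMM, filterByExpr, quasi-likelihood F test, Benjamini-Hochberg over all genes), with DESeq2 1.42.0 as an alternative. Responders and non-responders were compared within a day, days within a response group, and changes between the groups. The SE was taken as the size of the log2 fold change over the square root of F. Log2 CPM used a prior count of 0.5. Shares and correlations over mice used permutation tests (numpy 2.4.6). The test scripts were tested on simulated data. Alternatives were a two-sided Wilcoxon test on TPM, no filter, other scalings, the ear tag series as a covariate or alone, the other label of 1 library, 1 library left out, each mouse left out in turn and the mouse as a replicate block.

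Response, day and mouse come from the labels, and mice were numbered by ear tag within a response group. Each mouse gave its libraries on several days and so pairs them; deviations of libraries of the same mouse correlated with a mean r of -0.0658 to 0.0962 over pairs of days. No 2 libraries held identical values, and 0 columns were left unmapped. The counts cover 26059000 to 82208700 reads per library, and precision is set by the counts given for each member and by the spread between mice. The members and gene lists were chosen with earlier results of these data known. The text names all members, for each list the genes that pass with the smallest p in a direction (at most 2 per list, group and day) or that define it, and the 5 genes most like a member. The study's single-cell libraries were not used here. Some genes of the lists are not reported here by name.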

Additional observations from a re-analysis of the deposited data

Results flagged for a closer look

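A difference between responders and non-responders in the change of an isotype share marked 4 results for a closer look. From Day 4 to Day 9 the Ighg1 share rose by 0.0612 percentage points more in responders than in non-responders (adjusted p = 0.0373 by permutation, over 104 share tests), the Ighg2b share by 0.0775 points more (adjusted p = 0.0199) and the Igha share by 0.752 points more (adjusted p = 0.0373). From Day 4 to Day 17 the change of the Ighd share was -3.17 points in responders less non-responders (adjusted p = 0.0373).

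With the mice permuted within the ear tag series, only Ighg2b was still called among these 4 (adjusted p = 0.0312), while the adjusted p was 0.495 for Ighg1, 0.266 for Igha and 0.595 for Ighd. Leaving out any 1 of 10 mice ended the call of Ighg1 (0.0496 to 0.0587 points), any 1 of 7 that of Igha (0.464 to 0.757 points) and any 1 of 11 that of Ighd (-3.13 to -2.71 points). Differences that were called only with a mouse left out were Ighg2c on Day 9 without non-responder 24 (0.0295 points), Ighe on Day 17 in 3 cases (0.0101 to 0.0107 points) and Ighg2b on Day 24 without responder 15 (-0.103 points). Within the series, the mean Ighg1 share rose from Day 4 to Day 9 by 0.0514 points in responders and 0.0753 points in non-responders with 3-digit tags, so that the difference turned there, and by 0.194 and 0.157 points with 4-digit tags. The Ighg2b share rose by 0.215 and 0.103 points with 3-digit tags and by 0.175 and 0.123 points with 4-digit tags, and the Igha share by 1.46 and 0.791 points and by 1.84 and 1.61 points. From Day 4 to Day 17 the mean Ighd share of mice with 3-digit tags rose by 5.02 points in responders (n = 4) and by 2.80 points in non-responders (n = 22), and that of mice with 4-digit tags fell by 4.12 points in responders (n = 10) and by 1.90 points in non-responders (n = 7). Response and ear tag series overlap in part, and their parts in these differences were not tested further.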

How the results depend on the processing

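Of 1596 log2 fold changes of members under the alternatives, 1424 kept direction and side of the threshold, 79 turned sign with neither value called, 22 became called, 68 lost the call and 3 called values reversed. Share differences stayed on their side of the threshold in 626 of 702 values. The counts of members here include Ighg2c, which passed the filter through its later days, so they only describe the settings. Without Ighg2c and without a fold threshold, non-responders had 7, 7 and 6 from Day 4 to Days 9, 17 and 24. Responders had 6, 6 and 5. The number of members called in responders against non-responders was 0 on each day. It was 2 on Day 4 and 2 on Day 9 with a Wilcoxon test on TPM (48.4% and 47.6% of all genes). Without a fold threshold it was 1 on Day 9 and 1 on Day 24 (13.4% and 8.55% of all genes). Without a filter it was 1 on Day 17 (Ighe, with 0.302% of all genes called). With each mouse left out it was 0 to 1 on Days 4, 9 and 24. With a fold of 1.5 also asked, non-responders had 2, 6 and 6 (8, 8 and 7 without it) on Days 9, 17 and 24. Of all genes, 9.89%, 4.96% and 6.03% were called there. From Day 17 to Day 24 non-responders had 0 (3.15% of all genes). Responders had 4, 5 and 6 (6, 7 and 6 without it) on Days 9, 17 and 24, where 7.06%, 4.5% and 3.15% of all genes were called. They had 1 from Day 17 to Day 24 (3.93%). The falls of Ighm and Ighd were all under that fold. With 3-digit tags alone responders had 1, 0 and 0 on Days 9, 17 and 24 (6.91%, 0% and 0% of all genes). They had 0 from Day 9 to Day 17 (1.57%) and 0 from Day 17 to Day 24 (0.0394%). Non-responders had 0 from Day 17 to Day 24 (14.9%). With 4-digit tags alone responders had 3 on Day 9 (17.3% of all genes). Non-responders had 2, 3 and 3 on Days 9, 17 and 24 (14.3%, 12.7% and 3.96%) and 1 from Day 9 to Day 17 (6.39%). There Ighg3 of non-responders on Day 9 (-0.055) and Igha (-0.18) and Jchain (-0.11) from Day 9 to Day 17 reversed. Non-responders had 2 from Day 17 to Day 24 without haemoglobin genes, without the Day 24 library of non-responder 29 and with the mouse as a replicate block. Of all genes, 21%, 24.6% and 19.1% were called in these settings. With each mouse left out non-responders had 1 to 2 there, and responders had 0 to 1 from Day 9 to Day 17. The replicate block also gave 8 in place of 7 in responders on Day 17 (27.2% in place of 25.6% of all genes) and changed no other count.

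Shares called between the groups on Day 4 were 0 within the ear tag series, 0 among the switched isotypes, 1 on TPM and 0 to 3 with each mouse left out. On Day 9 they were 1, 0, 1 and 1 to 4. On Day 17 they were 1 within the series, 0 among the switched isotypes, 5 with the Day 17 library of non-responder 24 as a responder and 2 to 5 with each mouse left out. On Day 24 they were 1 without the library of non-responder 29 and 0 to 2. Differences of change on Day 9 were 1 within the series, 0 among the switched isotypes, 1 on TPM and 1 to 4, on Day 17 0 within the series and 0 to 2, and on Day 24 0 to 1. Among the switched isotypes, responders had 1, 1 and 1 and non-responders 1, 4 and 4 on Days 9, 17 and 24. There the direction turned for Igha between the groups on Day 9 (-2.14 points); in responders for Ighg3 (-1.52), Ighg2b (-0.728) and Igha (-0.2415) on Day 9, Ighg3 (-1.77), Ighg2b (-0.876), Ighg2c (-0.350) and Igha (-2.50) on Day 17, and Ighg3 (-0.897) and Igha (-6.29) on Day 24; in non-responders for Igha (-2.93) on Day 9, Ighg3 (-1.06) and Igha (-7.94) on Day 17 and Ighg3 (-0.725) and Igha (-9.36) on Day 24; and for the Ighg2b difference of change on Day 9 (-0.892). Without the Day 24 library of non-responder 29, chosen as an alternative after seeing the data, the Day 24 values of non-responders were -1.22 for Ighg3 and -7.92 for Igha, and the called shares of that comparison stayed called. A share among fewer genes has another denominator by construction.

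On log2(TPM + 0.1), 0 of 27 relations between days and 26 of 32 with Jchain passed, and r reversed for Jchain with Ighm on Day 4 (0.700), Ighd on Day 4 (0.757) and Day 9 (0.591), and Ighg3 on Day 17 (0.348) and Day 24 (0.579); the cause of these changes was not tested. The low counts of Ighg2c on Day 4 and of Ighe limit what these libraries can show for both.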
